A study of Homo sapiens with 6 samples.

Results

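The clustered protocadherin genes were examined in cultured human neurons of KOLF2.1J, a widely used induced pluripotent cell line, made from it by way of neural progenitor cells. The members were fixed by name as the 53 protein-coding genes of the alpha cluster (15 genes), the beta cluster (16 genes) and the gamma cluster (22 genes) on chromosome 5. They stand among 59792 genes of the RefSeq table used here. All peaks with a summit between 140.7 and 141.6 Mb (hg38) were taken from 2 lists, 1 for CTCF and 1 for H3K27ac. That stretch held 41 of the 43677 CTCF peaks and 60 of the 78694 H3K27ac peaks.

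Chromatin immunoprecipitation with sequencing (ChIP-seq) had been carried out on 2 libraries with a CTCF antibody and 2 with an H3K27ac antibody, beside 2 input libraries. All 6 came from neurons of this 1 cell line, matured by the BrainPhys protocol, and the labels name no treatment or second genotype. Whether the 2 libraries of an antibody came from separate cultures is not given in the sources used here. Each list joins both libraries of its antibody, so no spread between replicates could be computed and the read depth behind a peak is unknown. Because each library is bulk chromatin, more cells with an occupied site and a higher occupancy per cell cannot be told apart. As a check of the labelled cell type, H3K27ac lay at the start of 5 of 6 neuron marker genes searched (MAP2, TUBB3, DCX, SYT1 and GAP43, not RBFOX3). It also lay at 4 of 6 progenitor markers (SOX2, NES, VIM and HES1), at 1 of 2 pluripotency markers (DPPA4, not NANOG), and at 0 of 2 astrocyte and 0 of 2 oligodendrocyte markers. Over all protein-coding starts the share was 62.7%, so these few genes do not tell neurons from progenitors.

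Clustered protocadherins are cell-surface adhesion proteins by which a neuron's branches recognise one another. In the alpha and gamma clusters, each variable first exon has its own promoter and is spliced to a shared set of constant exons, whereas each beta gene is a single coding exon. A neuron usually expresses a small, partly random choice of the variable exons, while the genes named C-type are chosen in a more uniform way. CTCF, a zinc finger protein that halts cohesin and so anchors loops of chromatin, binds a conserved element in many of these promoters. In the alpha cluster it also binds inside the first exon, and loops bring chosen promoters to distant enhancers. H3K27ac, an acetylated form of histone H3, accumulates at active promoters and enhancers.

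The promoter sequences come first because a CTCF summit lies on them at many of the member starts with a CTCF peak. The summits in first exons, those away from the starts and those of PCDHAC1 and PCDHAC2 lie outside these sequences. The RefSeq promoter table (GRCh38.p14) held 47 of the 53 members, all on the plus strand, each with 250 bases before and 50 from the annotated start. It did not hold PCDHA3, PCDHA13, PCDHB6, PCDHB11, PCDHGA12 or PCDHGC5. The stretches below run 5′ to 3′ on the gene's strand, end before the start, and carry in capitals 1 match to the pattern GNCGCT (N is any base), the one inside the word most common in the cluster. Further matches, as in PCDHGC3, stay in lower case. Within each cluster, members with a CTCF peak at the start precede those without one, and PCDHGC3 is added as a C-type gene. PCDHA9 is the exception in holding no match, and so it carries no capitals.
PCDHA4, chr5:140806969-140807022: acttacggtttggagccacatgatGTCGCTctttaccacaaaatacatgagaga
PCDHA5, chr5:140821532-140821585: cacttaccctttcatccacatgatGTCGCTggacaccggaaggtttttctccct
PCDHA12, chr5:140875234-140875287: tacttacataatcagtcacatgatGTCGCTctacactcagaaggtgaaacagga
PCDHA7, chr5:140834162-140834215: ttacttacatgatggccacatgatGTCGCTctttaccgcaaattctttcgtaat
PCDHA9, chr5:140848277-140848330: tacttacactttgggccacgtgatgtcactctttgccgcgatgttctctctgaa
PCDHB2, chr5:141094534-141094587: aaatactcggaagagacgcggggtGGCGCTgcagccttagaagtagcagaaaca
PCDHB5, chr5:141135169-141135205: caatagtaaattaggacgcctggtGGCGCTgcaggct
PCDHB16, chr5:141182300-141182353: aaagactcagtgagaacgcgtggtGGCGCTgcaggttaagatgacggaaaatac
PCDHB4, chr5:141121713-141121766: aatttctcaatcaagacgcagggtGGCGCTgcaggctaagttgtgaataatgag
PCDHGB6, chr5:141407914-141407967: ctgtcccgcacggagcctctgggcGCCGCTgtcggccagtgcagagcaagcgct
PCDHGC3, chr5:141475870-141475923: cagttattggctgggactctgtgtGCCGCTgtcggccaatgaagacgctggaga
PCDHGA10, chr5:141412921-141412974: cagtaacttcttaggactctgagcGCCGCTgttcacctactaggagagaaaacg

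Each cluster had its own spelling of this element. The 8-letter word ATGTCGCT was in 9 of 13 alpha promoters searched, in none of the beta or gamma promoters, and in 0.249% of all 27305 promoters in the table (either strand). GTGGCGCT was in 13 of 14 beta promoters and in 316 of all 27305 promoters. GCCGCTGT was in 11 of 20 gamma promoters and in 1.61% of all promoters. The words overlap in the pattern GNCGCT, which was found on the gene's strand in 44 of 47 member promoters (93.6%) and in 28.2% of all promoters. On either strand the pattern was in 45 member promoters (95.7%) and in 43.8% of all. Each word was picked for being the commonest in these same promoters, and GNCGCT was added after seeing the words. A higher share than in all promoters therefore follows at least in part from that choice, and enrichment was not tested. The plainer pattern CGCT, searched on both strands, was in 46 of 47 member promoters against 69.3% of all promoters. A general core of the CTCF motif was in 1 member promoter (PCDHB9) and in 10.7% of all promoters. A match is a run of letters in the reference genome and not a measured site, and the reference need not be the sequence of this cell line. The PCDHA9, PCDHAC2 and PCDHGB7 promoters held no GNCGCT on the gene's strand.

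CTCF peaks lay within 500 bp of the start of 21 of the 53 members, which is 39.6% (95% Wilson interval 27.6 to 53.1%). Over 15843 protein-coding genes with a start in the promoter table the share was 28.2%, inside that interval. H3K27ac peaks lay at 17 of 53 member starts, 32.1% (interval 21.1 to 45.5%), and at 62.7% of protein-coding starts, above the interval. Intervals cover counting error only, and no test was possible with 1 list per antibody. Both marks were at 15 member starts (28.3%, against 24.7% of protein-coding genes). CTCF without H3K27ac was at 6 member starts (11.3%, interval 5.29 to 22.6%), against 3.40% of protein-coding genes. H3K27ac without CTCF was at 2 member starts, where 37.9% of protein-coding genes had it. The remaining 30 members (56.6%) had neither, against 33.9%.

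In the alpha cluster 8 of 15 starts had CTCF (interval 30.1 to 75.2%) and 8 had H3K27ac (the same interval). In the beta cluster 8 of 16 had CTCF (28.0 to 72.0%) and 7 had H3K27ac (23.1 to 66.8%). In the gamma cluster 5 of 22 had CTCF (22.7%, 10.1 to 43.4%) and 2 had H3K27ac (2.53 to 27.8%). The CTCF intervals of the clusters overlapped, and that of gamma held the 28.2% of all protein-coding starts. For H3K27ac the gamma interval lay below that of alpha and overlapped that of beta. The alpha and beta intervals for H3K27ac held the 62.7% of all protein-coding starts, and the gamma interval lay below it. The members' median peak signal for CTCF, on the authors' scale, was 50.3 over the 21 marked starts, and that of all 4460 marked protein-coding starts was 73.9. Without peaks exactly 800 bp wide the members' median was 116 over 11 starts. That median was not computed for all protein-coding starts, so 116 cannot be set against 73.9, which includes such peaks. The median H3K27ac fold enrichment was 8.69 over 17 member starts and 15.8 over all 9926 marked protein-coding starts.

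**Figure D1:**
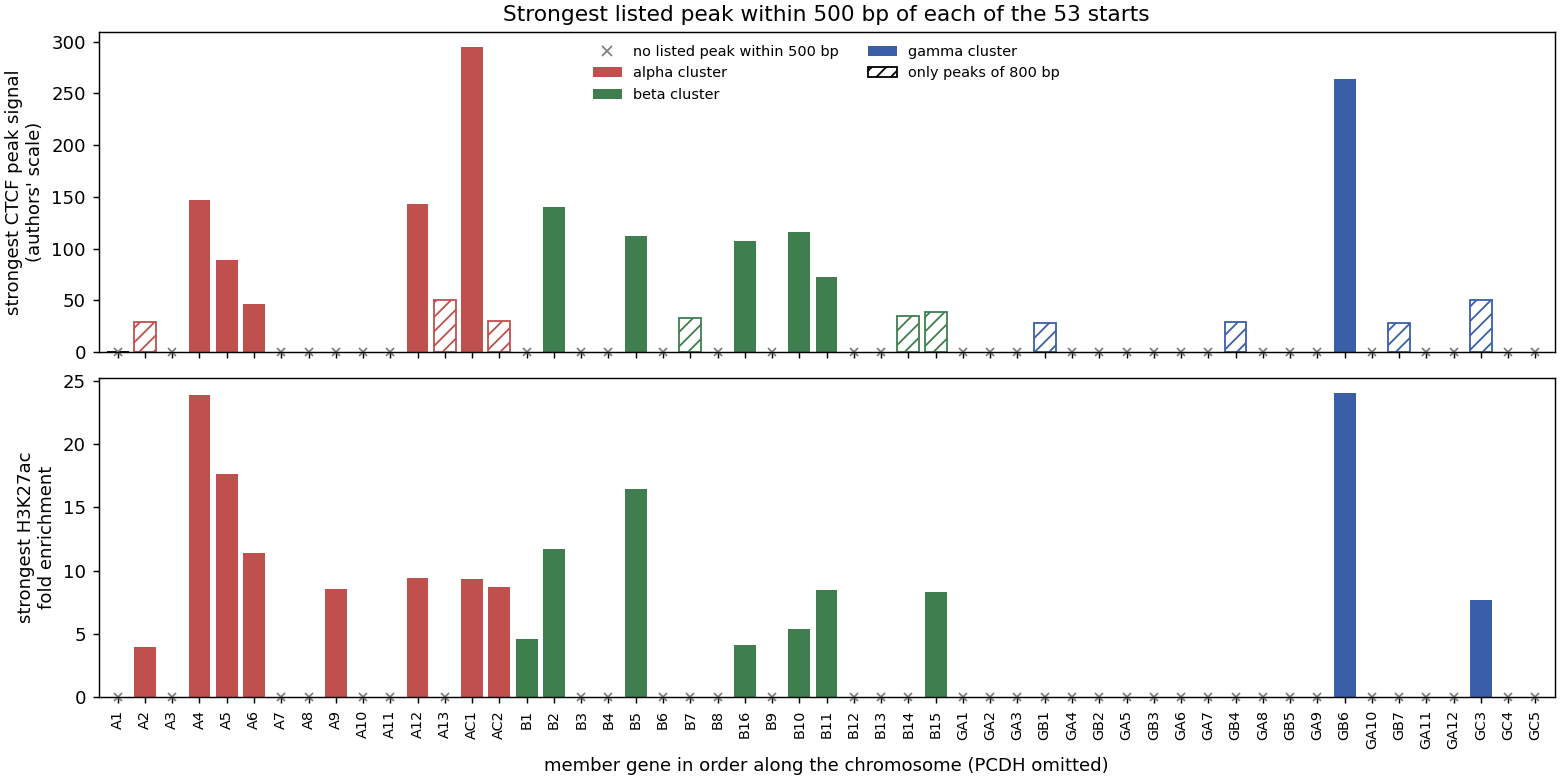
Bars give the strongest listed peak within 500 bp of each of the 53 starts, in order along the chromosome, as CTCF peak signal (top, authors' scale) and H3K27ac fold enrichment (bottom). Hatched bars are starts whose CTCF peaks were all 800 bp wide, and crosses mark starts without a peak: marked starts are spaced through the alpha and beta clusters, while PCDHGB6 (264 and 24.1) is the highest of the gamma genes.

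The width of CTCF peaks sorted the marked members. A width of exactly 800 bp recurs in 14577 of the listed CTCF peaks. All 15 such peaks in the stretch had their summit at the middle of the interval. Whether the width was measured or set by the peak caller is not given in the sources used here and was not tested. All CTCF peaks were of that width at 10 of the 21 starts, with signals from 28.0 to 50.3. At the other 11 starts at least 1 peak had another width, and the strongest signals ran from 46.0 to 294 with a median of 116. H3K27ac lay at all 11 of these starts (100%, interval 74.1 to 100%), and at 4 of the 10 with 800 bp peaks alone (40.0%, interval 16.8 to 68.7%). Among protein-coding genes the share with H3K27ac was 87.8% in the first class and 88.2% in the second. The 15 starts with both marks had a median CTCF signal of 108 (29.1 to 294), and the 6 with CTCF alone had a median of 31.2 (28.0 to 50.3). The second range lay almost wholly inside the first: PCDHA2, PCDHA6, PCDHAC2, PCDHB15 and PCDHGC3 had both marks with CTCF signals no higher than 50.3. Across the 15 starts with both, CTCF signal and H3K27ac fold enrichment had a Pearson's r of 0.45 and a Spearman's rho of 0.54. These starts share their libraries, and the correlation is given as a description.

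In the alpha cluster, the alternate genes with the highest H3K27ac fold enrichment were PCDHA4, PCDHA5, PCDHA6 and PCDHA12, each a variable exon encoding an extracellular, cadherin-repeat-bearing adhesion domain. PCDHA4 had the highest H3K27ac fold enrichment of the cluster's starts, 23.9 (percentile 94.8 of its list), and a CTCF signal of 147 (percentile 67.2 of its list). For PCDHA5, the H3K27ac fold enrichment was 17.6 and the CTCF signal 89.4. The PCDHA6 start had an H3K27ac fold enrichment of 11.4 beside a CTCF signal of 46.0. At PCDHA12 a CTCF signal of 143 went with an H3K27ac fold enrichment of 9.45. The order of the 4 genes by CTCF was thus not their order by H3K27ac, since PCDHA12 was second in CTCF and last in H3K27ac.

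Further alpha starts had a single mark or lower H3K27ac. PCDHA2 had an 800 bp CTCF peak with a signal of 29.1 and an H3K27ac peak with a fold enrichment of 3.96 (percentile 34.5). PCDHA13 had a CTCF signal of 50.3, above that of PCDHA6, and no H3K27ac. PCDHA9 was the reverse, with an H3K27ac fold enrichment of 8.56 and no CTCF peak, and its promoter, printed above, holds no GNCGCT. The starts of PCDHA1, PCDHA3, PCDHA7, PCDHA8, PCDHA10 and PCDHA11 had no peak of either list. No CTCF summit was listed over the 46.7 kb from PCDHA6 to PCDHA12, which holds the starts of PCDHA7 to PCDHA11. PCDHA7, with the same ATGTCGCT as PCDHA4 in its promoter, was thus unmarked.

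Of the 13 alternate alpha genes, 5 carried CTCF in pairs and PCDHA2 had a single peak. At PCDHA4, PCDHA5, PCDHA6, PCDHA12 and PCDHA13, 1 CTCF summit lay at positions from -68 to -25 bp relative to the start and another 569 to 613 bp after it, where the long first exon lies. PCDHA12 had a further 800 bp entry with a signal of 36.2 at 178 bp. The distance between the summits of a pair was 647, 648, 594, 657 and 649 bp in that order of genes. PCDHA4 had the higher signal in the exon (147, against 65.0 at the promoter), PCDHA12 had it at the promoter (143, against 76.9), and in PCDHA5 (75.2 and 89.4), PCDHA6 (44.1 and 46.0) and PCDHA13 (50.3 and 42.9) the signals lay closer together. The H3K27ac summit of the first 4 genes fell between the promoter and exon CTCF summits, 260 to 320 bp after the start. PCDHA13, where both CTCF peaks were 800 bp wide, was the pair without H3K27ac. All 5 CTCF summits classed as first exon (more than 500 and up to 3000 bp after a start) belonged to these alpha genes, and none of the beta or gamma summits fell in that range.

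**Figure D2:**
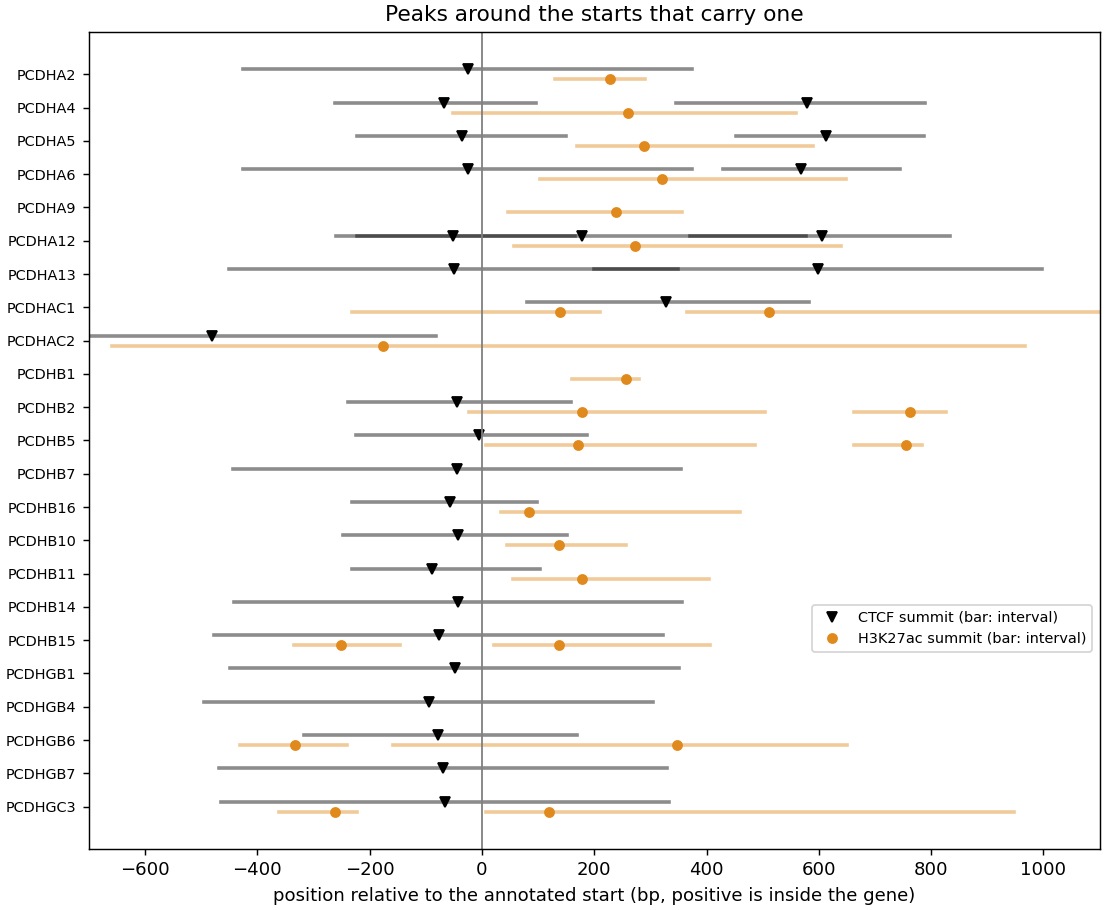
Positions of CTCF summits (black triangles) and H3K27ac summits (orange circles), with their intervals as bars, relative to the annotated start of the 23 members that carry either mark. In PCDHA4, PCDHA5, PCDHA6 and PCDHA12 the H3K27ac summit sits between the promoter and exon CTCF summits, and in the beta genes with both marks the strongest H3K27ac summit follows a single CTCF summit near the start.

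Both C-type genes of the alpha cluster were marked. PCDHAC1 had the highest CTCF signal of any member start, 294 (percentile 94.9), in a single peak whose summit lay 328 bp after the start (140926379 to 140926881). Its H3K27ac was split into 2 peaks with fold enrichments of 4.87 and 9.36 on either side of that CTCF summit. PCDHAC2 had an 800 bp CTCF peak of low signal (30.2) with its summit at -481 bp from the start, and an H3K27ac peak 1628 bp wide with a fold enrichment of 8.69. These 2 genes thus differed from the alternate alpha genes in where CTCF lay.

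The beta genes had a simpler layout. At each of the 8 marked beta starts a single CTCF peak had its summit at -89 to -5 bp from the start. PCDHB2 led with a signal of 141 and an H3K27ac fold enrichment of 11.7. PCDHB10 followed in CTCF (116) with a modest H3K27ac fold enrichment of 5.41. PCDHB5 had a CTCF signal of 112 and the highest H3K27ac of the beta starts, 16.5. PCDHB16 had nearly the same CTCF signal (108) and an H3K27ac fold enrichment of only 4.12. PCDHB11 had values of 72.8 and 8.44. CTCF signals in this group thus lay within 72.8 to 141, while H3K27ac ranged from 4.12 to 16.5.

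The other 3 beta starts with CTCF had 800 bp peaks. PCDHB15 had a CTCF signal of 38.9 and an H3K27ac fold enrichment of 8.32. PCDHB7 (33.2) and PCDHB14 (35.1) had CTCF and no H3K27ac. PCDHB1, which stands apart from the rest of the cluster and lacks the cluster's GTGGCGCT, had H3K27ac alone, at a fold enrichment of 4.61. No peak of either list was at PCDHB3, PCDHB4, PCDHB6, PCDHB8, PCDHB9, PCDHB12 or PCDHB13. Marked and unmarked beta genes were interspersed along the chromosome, with PCDHB16 (marked) between the unmarked PCDHB8 and PCDHB9.

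The gamma cluster was sparse and uneven. None of the 12 PCDHGA starts had a peak of either list, while 4 of the 7 PCDHGB starts had CTCF. For PCDHGA the interval reached up to 24.2% for either mark, below the 28.2% (CTCF) and 62.7% (H3K27ac) of protein-coding starts. The CTCF interval of the PCDHGB starts held the 28.2%. These intervals too describe counts over neighbouring starts, and a difference between the families was not tested. Only 1 of the 4 PCDHGB starts with CTCF had a peak of another width than 800 bp. PCDHGB6 had a CTCF signal of 264 (percentile 91.0) and an H3K27ac fold enrichment of 24.1, the highest of all 53 starts. PCDHGB1, PCDHGB4 and PCDHGB7 had 800 bp CTCF peaks with signals of 28.2, 29.1 and 28.0, near percentile 10 of the list, and no H3K27ac. PCDHGB2, PCDHGB3 and PCDHGB5 had neither mark. No H3K27ac summit was listed over 87.0 kb from TAF7, the gene before the gamma cluster, to PCDHGB6, which holds the starts of 14 gamma genes. A further 67.3 kb from PCDHGB6 to PCDHGC3 held none over 4 more starts.

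Of the gamma C-type genes, PCDHGC3 had a CTCF signal of 49.8 in an 800 bp peak and an H3K27ac fold enrichment of 7.72. PCDHGC4 and PCDHGC5 had neither mark at the start. Over both clusters with C-type genes, 3 of these 5 genes carried both marks, against 28.3% of all members and 24.7% of protein-coding genes. With 5 genes this count is only a description, and PCDHAC2 and PCDHGC3 had CTCF in 800 bp peaks alone.

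Near-identical promoters limit what a missing or weak peak can mean, since reads that fit 2 places may be dropped or split, and how the authors treated them is not given in the sources used here. Among 1081 pairs of member promoters, 3 pairs shared an exact run of at least 36 bases. PCDHGB4 and PCDHGB5 shared 78 bases, and only PCDHGB4 had a CTCF peak. PCDHB8 and PCDHB13 shared 55 bases and neither was marked. PCDHGB6 and PCDHGB7 shared 38 bases, with CTCF signals of 264 and 28.0. The part of shared sequence in these values was not tested.

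In the members that hold their cluster's word and a CTCF peak, the promoter summit lay close to the word. A CTCF summit was listed within 500 bp of the start at 16 of the 33 members that hold it. The distance from the summit to the centre of the GNCGCT letters had a median of 9 bp and ran from 1 to 30 bp. For the 8 summits of peaks with another width than 800 bp the median was 5 bp and the highest 19 bp, and for the 8 summits of 800 bp peaks the median was 19 bp. At PCDHGB6 the letters were centred at -80 bp and the summit lay at -79 bp from the start. At PCDHB5 these positions were -10 and -5 bp, and at PCDHA4 they were -72 and -68 bp. The word was no mark of occupancy by itself: 17 of the 33 promoters with it, PCDHA7, PCDHB4 and PCDHGA10 among them, had no CTCF peak. Among the promoters searched without the word, CTCF was at 1 of 11 with a sole GNCGCT match and at 2 of 3 with no match. Whether the word and CTCF go together was not tested. PCDHAC1, with the highest CTCF signal of the members, lacked the alpha word, and its sole GNCGCT match was 390 bp from the summit. PCDHAC2 and PCDHGB7 had weak CTCF peaks without the letters on the gene's strand.

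**Figure D3:**
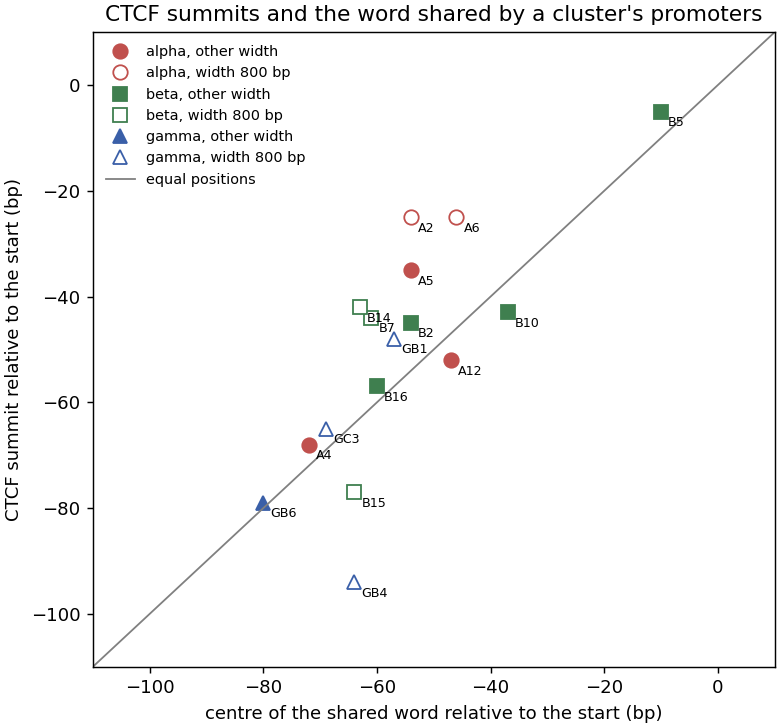
Position of the CTCF summit against the centre of the cluster's shared word, both in bp relative to the start, for the 16 members with the word and a CTCF summit (circles alpha, squares beta, triangles gamma, open symbols 800 bp peaks). Points lie along the line of equal positions, with filled symbols within 19 bp of it and open symbols within 30 bp.

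H3K27ac summits were set off from CTCF summits. The strongest CTCF summit within 500 bp of a member start had a median position of -50 bp and lay before it in 20 of 21 members, PCDHAC1 being the exception. For H3K27ac the median was 178 bp after the start, and 16 of 17 members had it after the start, PCDHAC2 being the exception. In the whole stretch 29 of 41 CTCF peaks (70.7%, interval 55.5 to 82.4%) shared at least 1 bp with H3K27ac, and 30 of 60 H3K27ac peaks (interval of the share 37.7 to 62.3%) overlapped CTCF. With the CTCF summit required inside the H3K27ac interval the first share was 26.8%. The same shares over the whole lists were not computed. Whether this overlap is particular to the stretch was therefore not tested.

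Peaks were dense in all 3 clusters relative to the lists as a whole. The alpha cluster held 6.19 CTCF peaks per 100 kb, the beta cluster 5.05 and the gamma cluster 3.84, where chromosome 5 held 1.31 and the whole list 1.47. For H3K27ac the densities were 7.52, 5.56 and 5.48 per 100 kb, against 2.39 on chromosome 5 and 2.66 in the whole list. These densities make no allowance for how closely gene starts lie: 15 in 226.2 kb of alpha, 16 in 198.0 kb of beta and 22 in 182.5 kb of gamma. Counted per start, CTCF was at 39.6% of members against 28.2% of protein-coding genes, and H3K27ac at 32.1% against 62.7%. Inside the alpha cluster all 14 CTCF peaks were at member starts. Of the 10 CTCF peaks in the beta cluster 8 were, and of the 7 in the gamma cluster 5 were.

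The strongest H3K27ac of the stretch lay at no gene start. A peak between the alpha and beta clusters, 141039646 to 141041252, had a fold enrichment of 41.6 (percentile 98.7). It overlapped 2 CTCF peaks with signals of 197 and 146, whose summits lay at -11015 and -10004 bp from the start of PCDHB1. This interval between the clusters is where HS5-1, an alpha enhancer with a pair of CTCF sites, is known to lie. Between PCDHAC2 and the end of the alpha cluster H3K27ac had 8 peaks away from the starts, 3 before and 5 inside the interval annotated as the alpha constant region. The strongest of these, 141001104 to 141003400, had a fold enrichment of 25.7, and none of the 8 overlapped a CTCF peak.

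The gamma cluster's H3K27ac was concentrated at its far end. Between the start of PCDHGC5 and the end of the cluster 6 peaks were listed, of which the strongest (141493426 to 141496817, 3392 bp wide) had a fold enrichment of 29.4. A peak of 4091 bp from 141511774 to 141515864 spanned the end of the cluster and the neighbouring end of DIAPH1, the gene for a formin that assembles actin filaments, with a fold enrichment of 37.8. CTCF was listed there at 141512284 to 141512779 in 2 entries of the same interval, with signals of 194 and 20.9. Known enhancers used by the beta and gamma clusters lie beyond the gamma constant exons. In DIAPH1, 35.8 kb beyond the start of PCDHGC5, the strongest CTCF peak of the stretch (141524613 to 141525232) had a signal of 412 at percentile 99.9, and it overlapped H3K27ac. CTCF peaks with signals of 257, 244 and 238 followed 72.0, 75.2 and 103 kb beyond that start. Ahead of the gamma cluster, at TAF7, a general transcription factor subunit gene, a CTCF signal of 265 lay beside an H3K27ac fold enrichment of 28.7.

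**Figure D4:**
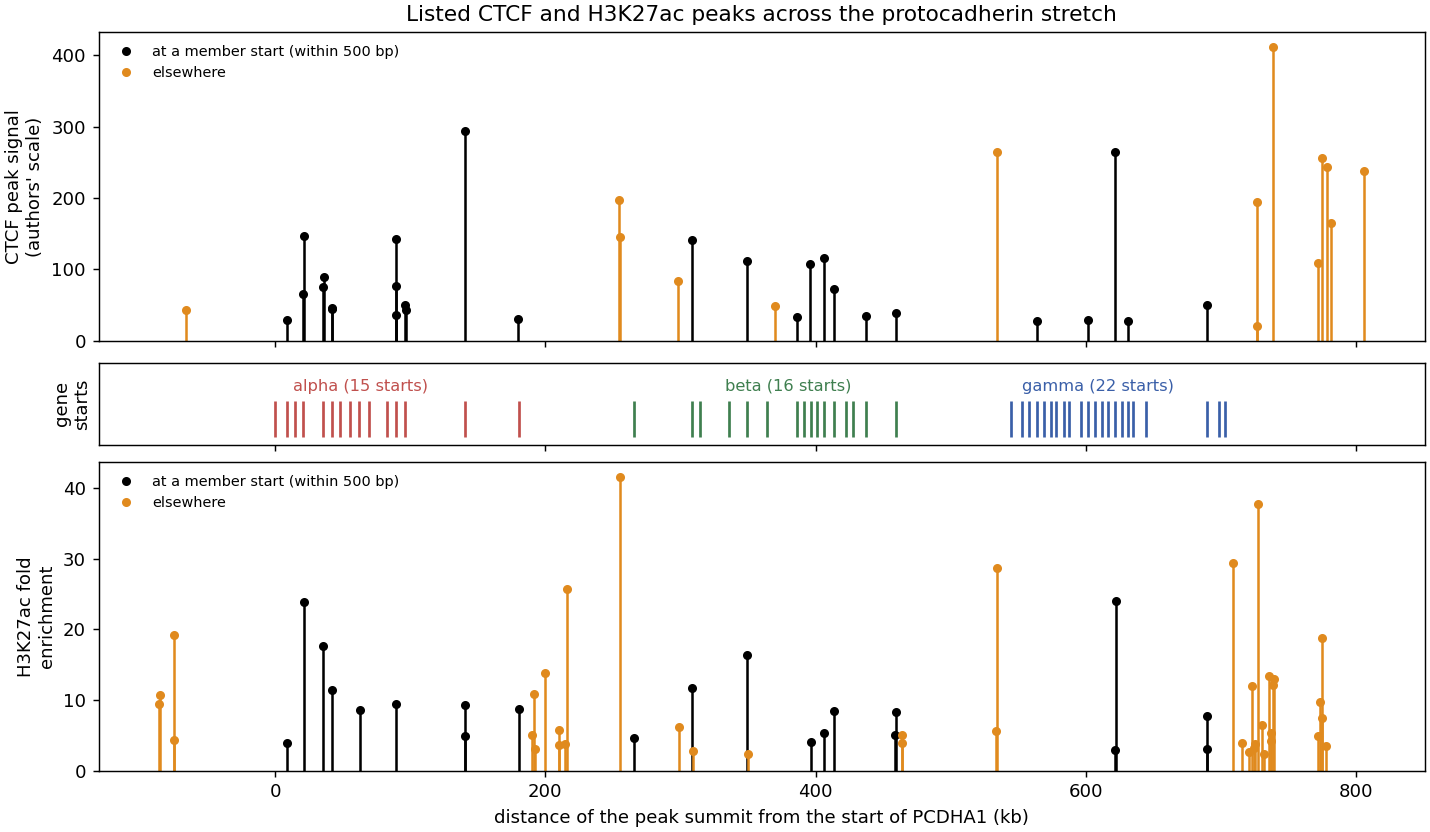
Listed peaks across the stretch by distance of the summit from the start of PCDHA1 in kb, as CTCF peak signal (top, authors' scale) and H3K27ac fold enrichment (bottom), with ticks for the 53 gene starts between them. Black stems are peaks within 500 bp of a member start and orange stems are the others: the highest H3K27ac (41.6) and the highest CTCF (412) are both orange.

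Other genes of the same biology were read in the same way from lists written by function, beside shares over all protein-coding starts of 28.2% for CTCF and 62.7% for H3K27ac. The counts in these short lists are given as descriptions, and those of the non-clustered protocadherins lay near these shares. Of 9 non-clustered protocadherins searched, which are adhesion genes outside the clusters, 3 had CTCF at the start (PCDH7, PCDH8 and PCDH19, signals of 35.87, 49.96 and 12.06) and 6 had H3K27ac. The highest fold enrichment among these was 26.96 at PCDH9, and PCDH1, PCDH11X and PCDH12 had neither mark. All 12 genes searched for factors that shape or silence the clusters had H3K27ac at the start, among them CTCF itself (26.4), the cohesin subunit gene SMC3 (41.9), the loader gene NIPBL (24.6) and the silencing factor gene SMCHD1 (33.2). Of these 12, 5 also had CTCF, with the highest signals at STAG1 (367) and STAG2 (242), which encode alternative cohesin subunits. The 4 actin-regulator genes searched that act with protocadherins all had H3K27ac, with fold enrichments from 6.82 at CYFIP1 to 67.4 at WASF1.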

How the data were processed

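ChIP-seq of CTCF and H3K27ac had 2 libraries each and 2 inputs. The submitters' processing notes name hg38 and cutadapt 1.16 without a role. The aligner and peak caller are not given in the sources used here. The deposited files were 2 lists, each covering both libraries of its antibody, with 0 columns of per-sample values. The authors' CTCF column is a peak signal on an unstated scale. The H3K27ac column deposited is a fold enrichment (ratio), judged from its values. The deposited lists also give −log10 q and a score, not used in the main results. Values of the lists are on different scales and were related only by rank and correlation, and depth is unknown.

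Gene starts came from the RefSeq promoter table (GRCh38.p14), taking the most upstream start of each gene. For 6 members absent from it the lower end of the gene table's interval was used. A start was marked where a peak interval lay within 500 bp. Overlap meant at least 1 bp. Percentiles give the share of a list with lower values. Coordinates are 1-based. Density divided peaks by cluster length, or for whole lists by the span from first to last peak per chromosome. Wilson intervals have 95% confidence. No test across samples was possible. Overlap and word searches were tested on simulated data. Python 3.11.15, pandas 2.3.3 and matplotlib 3.10.9 were used.

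The members and gene lists were chosen with earlier results of these data known. The named genes were, per cluster, the 5 highest in each mark, members without CTCF, C-type genes, PCDHB1, and the 5 strongest peaks of each list away from starts. Other members and peaks, the pattern GNCGCT, the words per cluster, the CTCF pairs, shared promoter runs and the split by width were chosen after seeing the values. Alternatives covered window size, peak strength, q, width and overlap. Genes missing from the promoter table were left out of gene lists.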

Additional observations from a re-analysis of the deposited data

How the results depend on the processing

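No paired analysis was possible because the 2 libraries of an antibody were merged into 1 list, so no library could be left out either. Among 38 alternatives, 11 moved a count or density by over 1.5 times, or another value beyond its interval, and 27 did not. One of the 27, leaving out 800 bp peaks, still took the members' median CTCF signal from 50.3 to 116, within the wide interval of that median and past the 73.9 of all marked starts, which includes such peaks. The number of members with CTCF at the start was 21 with windows of 250, 1000 and 2000 bp, by summit, and with q under 0.01. It was 8 in the 50% of the list with the highest signals (15.1%, against 12.3% of protein-coding genes) and 11 without 800 bp peaks (20.8%, against 17.2%). With windows of 2000 bp the background rose to 37.4%. Members with H3K27ac numbered 14 to 17 in all alternatives. In the 50% of peaks with the highest values, densities per 100 kb fell to 1.33, 2.02 and 1.10 for CTCF in alpha, beta and gamma, and to 3.54 and 2.19 for H3K27ac in beta and gamma. A shorter list lowers density by construction, and beta then stood above alpha for CTCF, as it did with overlapping entries merged (5.05 against 4.86). The overlap of CTCF with H3K27ac was 26.8% by CTCF summit, 34.1% with at least 50% of the peak covered, and 88.5% without 800 bp peaks. The share of CTCF summits within 500 bp of a start, 53.7%, was 38.5% without 800 bp peaks, because 12 of the 22 such summits have that width. Other causes were not tested.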

Other observations

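Most pseudogenes of the clusters were unmarked, as were the starts of 30 of the 53 members (56.6%) and 33.9% of protein-coding starts. Pseudogenes were searched over their whole interval and genes only at the start, so these shares follow unlike rules. The pseudogene count is given as a description. Of the 6 pseudogenes named after protocadherins in the stretch, PCDHA14, PCDHB18P, PCDHGB8P and PCDHGB9P had no peak of either list within 500 bp of their interval. PCDHB17P had an 800 bp CTCF peak with a signal of 49.2 and no H3K27ac. The marks within 500 bp of PCDHB19P (CTCF signal 38.9, H3K27ac fold enrichment 5.07) belong to peaks that also lie at the start of PCDHB15.

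A CTCF peak with a signal of 84.0 lay at -10.0 kb from PCDHB2 (141084389 to 141084766), away from any annotated gene in the table, and overlapped an H3K27ac peak with a fold enrichment of 6.23. Before the alpha cluster, the vault RNA gene VTRNA1-1 had H3K27ac within 500 bp at a fold enrichment of up to 19.2, whereas VTRNA1-2 and VTRNA1-3 had no peak. SLC25A2, a mitochondrial carrier gene between the beta and gamma clusters, had neither mark.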
